A study of Mus musculus with 15 samples.

Results

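The simple keratins Krt7, Krt8, Krt18 and Krt19, the adhesion molecule Epcam, the claudins Cldn3, Cldn4, Cldn7 and Cldn18, and occludin (Ocln) were followed in mouse tumours that model small cell lung cancer (SCLC, a fast-growing cancer of neuroendocrine type) and in normal lung. The 10 genes were taken as a list of epithelial genes, and all probe sets annotated to each of them alone were taken, which gave 18 of the 45037 probe sets tested and 10 of the 18193 genes measured. RNA was read on Affymetrix mouse whole-genome arrays, with 1 array per sample, in 3 groups. Of these, 3 were tumours in which Rb, p53 and p130 had been deleted (Rb/p53/p130 tumours, numbers 11 to 13), dissected from mice aged 6 months after an adenovirus carrying Cre recombinase was given by the nose. A further 10 were tumours in which Rb and p53 had been deleted in the same way (Rb/p53 tumours, numbers 1 to 10), with an interval of 8 to 12 months. The last 2 were wild-type, tumour-free adult lungs (normal lung, numbers 1 and 2), which are not stated to have received the virus. Deletion of Rb and p53 is shared by both tumour groups, and the time after infection differs between them along with p130. The promoter driving Cre, the strain, the sex and the purity of the dissected tumours are not given in the sources used here. Whether the arrays of a group stand for different mice is not labelled, so each p-value reflects the spread among these arrays alone.

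Keratins assemble into intermediate filaments as pairs of a type II and a type I chain. Krt8 and Krt7 are type II chains and Krt18 and Krt19 type I chains, and this set is the usual one of single-layered epithelia, the lung lining among them. Claudins and occludin are tetraspan membrane proteins of the tight junction, the seal between neighbouring epithelial cells, and the claudin set decides which ions pass. Epcam is a surface adhesion protein of epithelial cells that binds Cldn7. Cldn18 is the claudin known for alveolar type 1 and type 2 cells, and pulmonary neuroendocrine cells, from which SCLC can arise, are themselves epithelial cells of the airway.

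Values are log2 expression levels made by RMA (robust multi-array average, which corrects background, equalises arrays and sums the probes of a probe set), and a step of 1 is a doubling. A gene is read from its brightest probe set, and levels of different genes are not set against each other because probe sets differ in brightness. Array medians lay between 6.58 and 6.68, and precision is limited by how few arrays there are. Rb/p53 tumour 7 correlated least with its own group over all probe sets (median r = 0.953, against 0.964 to 0.974 for the others), so results that rest on it are also given without it. The label of a neuroendocrine tumour could be read from 11 measured neuroendocrine markers, all of which were called higher in each tumour group than in normal lung. Their mean level was 10.99 to 11.34 in Rb/p53/p130 tumours, 10.88 to 11.72 in Rb/p53 tumours and 5.21 to 5.51 in normal lung.

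Start regions are shown for 4 genes, because Krt8 and Krt18 encode partner chains and rose together, Epcam had the clearest rise, and Cldn4 was among the 3 most variable between tumours. Each runs from 250 bases before to 50 after the annotated start, read 5' to 3' on the gene's strand, from RefSeq on assembly GRCm38.p6. Krt8 lies at chr15:102004293-102004592 (minus strand), Krt18 at chr15:102027966-102028265 (plus), Epcam at chr17:87635729-87636028 (plus) and Cldn4 at chr5:134946885-134947184 (minus). Capitals mark matches on either strand to the motifs searched, described next.
Krt8: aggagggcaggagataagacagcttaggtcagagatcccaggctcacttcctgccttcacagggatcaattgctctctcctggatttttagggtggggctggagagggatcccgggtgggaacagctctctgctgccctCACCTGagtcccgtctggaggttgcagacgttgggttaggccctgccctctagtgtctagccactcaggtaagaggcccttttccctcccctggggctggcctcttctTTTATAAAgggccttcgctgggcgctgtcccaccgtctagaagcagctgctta
Krt18: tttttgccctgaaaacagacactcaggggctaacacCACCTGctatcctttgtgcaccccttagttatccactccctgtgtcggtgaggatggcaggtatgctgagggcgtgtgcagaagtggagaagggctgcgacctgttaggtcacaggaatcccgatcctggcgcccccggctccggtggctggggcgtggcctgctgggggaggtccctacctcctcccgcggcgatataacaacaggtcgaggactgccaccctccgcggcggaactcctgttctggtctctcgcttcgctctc
Epcam: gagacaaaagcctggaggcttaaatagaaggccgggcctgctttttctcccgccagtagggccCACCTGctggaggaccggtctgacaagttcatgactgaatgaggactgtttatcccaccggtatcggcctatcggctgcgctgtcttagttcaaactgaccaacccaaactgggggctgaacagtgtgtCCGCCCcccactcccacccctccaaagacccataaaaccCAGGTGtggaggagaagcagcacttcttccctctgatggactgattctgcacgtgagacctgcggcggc
Cldn4: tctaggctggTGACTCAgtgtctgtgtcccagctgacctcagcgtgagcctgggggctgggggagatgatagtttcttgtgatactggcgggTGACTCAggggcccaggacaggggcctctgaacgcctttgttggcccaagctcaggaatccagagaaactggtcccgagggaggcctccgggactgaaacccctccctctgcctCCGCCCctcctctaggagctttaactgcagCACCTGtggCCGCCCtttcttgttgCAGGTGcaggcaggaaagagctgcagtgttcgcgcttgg

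The motifs were the E2 box CAGGTG, bound by Snail and Zeb repressors, the GC box GGGCGG of Sp1-type factors, the TATA box TATAAA, the AP-1 motif TGANTCA and the Grainyhead motif AACCNGGTT, each on both strands. RefSeq windows were found for 9 of the 10 genes, 12 windows in all, of which the pair for Ocln overlap each other. The E2 box stood in 9 of the 12 windows and in at least 1 window of 8 genes, against 20.2% of all 32817 windows of this length. All 4 printed windows hold it. The GC box stood in 7 of the 12, against 35.6% of all windows, and in Epcam and Cldn4 of those printed. A TATA box was found in Krt8, as overlapping matches on both strands, against 13.6% of all windows. The AP-1 motif matched in 2 places in Cldn4, against 7.81% of all windows, and the Grainyhead motif in 0 of the 12, against 0.271%. G and C made up 52.0% to 68.0% of the letters of the 12 windows, where the median of all windows was 52.7%. Matches were not set against windows of like composition. An E2 box that both Ocln windows share was counted in each. Such matches describe letters, not bound sites. Krt8 and Krt18 are neighbours on chromosome 15, 23873 bases apart, and Cldn3 and Cldn4 on chromosome 5, 39279 bases apart.

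**Figure D1:**
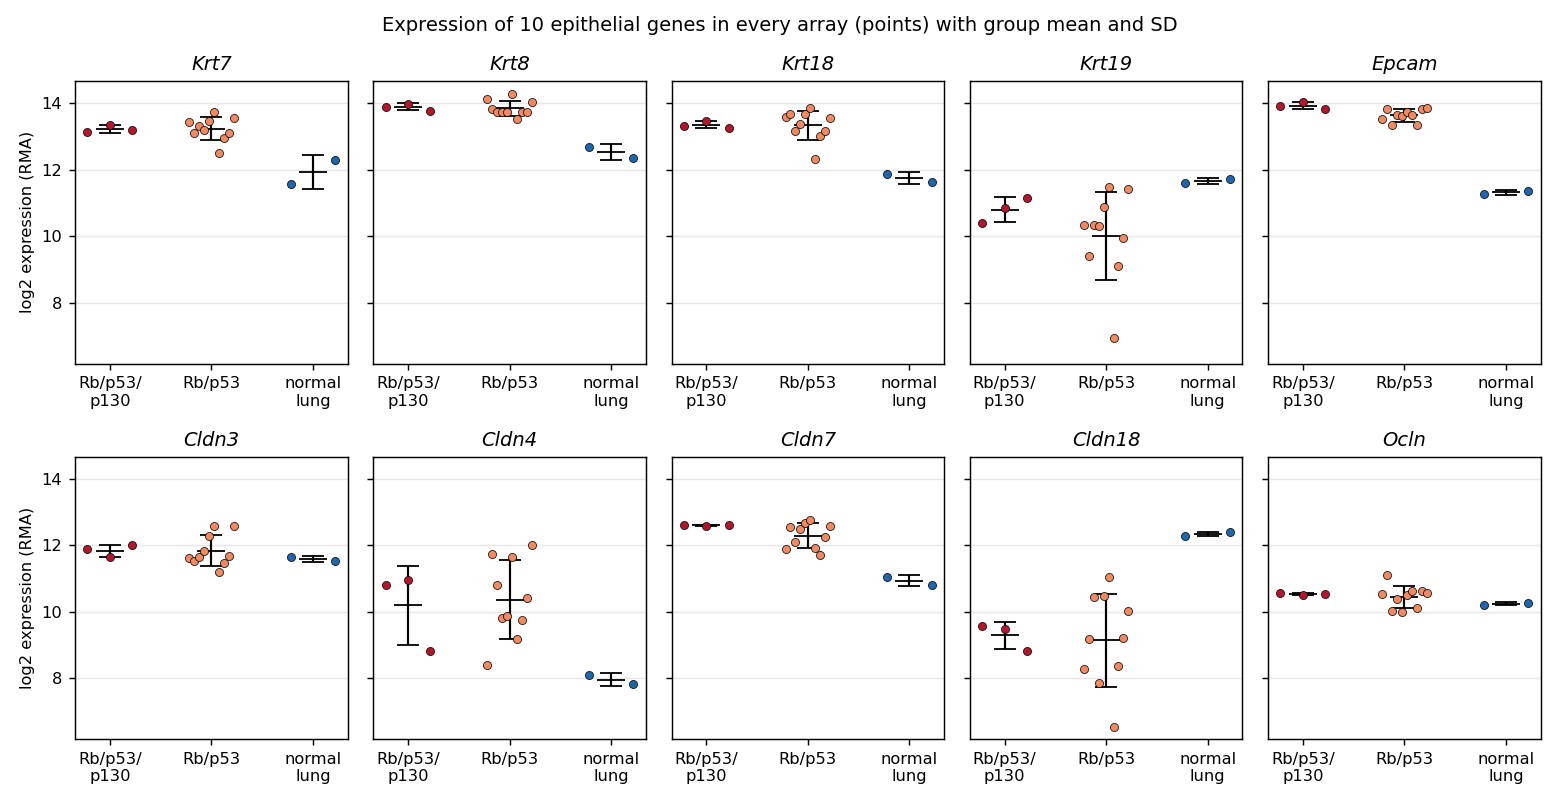
Log2 expression (vertical axis, RMA) of the 10 genes in each array. Points are arrays, and horizontal bars are the group mean with SD for Rb/p53/p130 tumours (n = 3), Rb/p53 tumours (n = 10) and normal lung (n = 2). All tumours lie above both lungs for Krt7, Krt8, Krt18, Epcam, Cldn4 and Cldn7 and below both for Krt19 and Cldn18.

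The comparison of tumours with normal lung addresses what epithelial identity remains in them. Both tumour genotypes carried the simple keratins Krt7, Krt8 and Krt18, Epcam and Cldn7 at higher levels than whole lung, while Cldn18 was lower. In Rb/p53 tumours 6 of the 10 genes were called higher (Krt7, Krt8, Krt18, Epcam, Cldn4 and Cldn7), where 18.3% of all genes were, and 1 lower (Cldn18), where 20.5% were. Calls are at an adjusted p under 0.05 in limma, over all probe sets. In Rb/p53/p130 tumours the same genes except Cldn4 were called, 5 higher and 1 lower, where 15.3% and 15.6% of all genes were. The median absolute log2 difference of the 10 genes was 1.48 in Rb/p53/p130 tumours and 1.47 in Rb/p53 tumours, against 0.42 in each for all genes. Both comparisons use the same 2 normal lungs. In bulk samples more cells of a type and more RNA per cell cannot be told apart, and whole lung is a mixture of which epithelium is a part.

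Krt8, the type II chain present in every simple epithelium, had log2 levels of 13.89, 13.99 and 13.78 in Rb/p53/p130 tumours. The Rb/p53 tumours ran over 13.53, 13.75 and 14.28 (lowest, median and highest), and the normal lungs had 12.69 and 12.36. Every tumour was above both lungs. Krt8 was higher by 1.36 ± 0.20 (SE) in Rb/p53/p130 tumours, 2.57-fold (limma adjusted p = 0.000114), and by 1.33 ± 0.17 in Rb/p53 tumours, 2.51-fold (limma adjusted p = 2.20e-05). Both further Krt8 probe sets were called higher in each comparison.

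Its partner Krt18 had 13.32, 13.46 and 13.26 in Rb/p53/p130 tumours. The Rb/p53 tumours had 12.33, 13.46 and 13.86 (lowest, median and highest) and the normal lungs 11.88 and 11.62. The lowest tumour was Rb/p53 tumour 7, and the groups did not overlap. Krt18 was higher by 1.60 ± 0.34 in Rb/p53/p130 tumours, 3.03-fold (limma adjusted p = 0.00257), and by 1.59 ± 0.28 in Rb/p53 tumours, 3.00-fold (limma adjusted p = 0.000551).

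Krt7, a type II chain of ducts, airways and mesothelium, had 13.12, 13.35 and 13.19 in Rb/p53/p130 tumours. In Rb/p53 tumours it ran over 12.50, 13.25 and 13.73 (lowest, median and highest), and in normal lung it had 11.58 and 12.30. The lungs differed more from each other in Krt7 than in any other of the 10 genes, yet all tumours were above them. Krt7 was higher by 1.28 ± 0.30 in Rb/p53/p130 tumours, 2.43-fold (limma adjusted p = 0.0049), and by 1.29 ± 0.25 in Rb/p53 tumours, 2.45-fold (limma adjusted p = 0.00101). Without normal lung 1 neither difference was called (limma adjusted p = 0.103 and 0.0566, in that order).

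Krt19, the short type I chain without a tail domain, lay below the lung level without being called. Its levels were 10.39, 10.86 and 11.15 in Rb/p53/p130 tumours, with 6.95, 10.32 and 11.49 in Rb/p53 tumours (lowest, median and highest) and 11.60 and 11.72 in normal lung. All 13 tumours were below both lungs, the nearest by little and Rb/p53 tumour 7 by far. The difference was -0.86 ± 0.96 in Rb/p53/p130 tumours (limma adjusted p = 0.586) and -1.64 ± 0.82 in Rb/p53 tumours (limma adjusted p = 0.149), and the arrays of Rb/p53 tumours were spread widely. The fit shares 1 estimate of spread over the 3 groups. Their SDs were 0.38 in Rb/p53/p130 tumours, 1.32 in Rb/p53 tumours and 0.085 in normal lung. Fitting Rb/p53/p130 tumours and lung alone called the difference (limma adjusted p = 0.0309), where that fit called 35.9% of all probe sets. Krt19 and Cldn18 were the 2 genes whose arrays lay wholly below normal lung in each comparison, as did 33.2% of all genes in Rb/p53/p130 tumours and 20.2% in Rb/p53 tumours. In Rb/p53/p130 tumours 7 genes lay wholly above normal lung, where 32.8% of all genes did, namely Ocln and the 6 called higher in Rb/p53 tumours. In Rb/p53 tumours these 6 did, where 18.2% of all genes did.

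Epcam had the smallest adjusted p of the 10 genes in both comparisons. It had 13.91, 14.03 and 13.83 in Rb/p53/p130 tumours, with 13.33, 13.65 and 13.85 in Rb/p53 tumours (lowest, median and highest) and 11.27 and 11.37 in normal lung. No tumour came near the lungs, and the tumours hardly differed from each other. The gene was higher by 2.60 ± 0.17 in Rb/p53/p130 tumours, 6.07-fold (limma adjusted p = 5.51e-08), and by 2.31 ± 0.14 in Rb/p53 tumours, 4.97-fold (limma adjusted p = 1.99e-08). A second Epcam probe set gave smaller differences of 1.21 and 0.75, both called higher.

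Among the claudins, Cldn7, which sits along the side membrane of epithelial cells and binds Epcam, had 12.61, 12.58 and 12.61 in Rb/p53/p130 tumours. The Rb/p53 tumours had 11.71, 12.37 and 12.76 (lowest, median and highest), against 11.06 and 10.82 in normal lung. The tumours were all above the lungs, and the 3 Rb/p53/p130 tumours were nearly alike. Cldn7 was higher by 1.66 ± 0.28 in Rb/p53/p130 tumours, 3.15-fold (limma adjusted p = 0.000527), and by 1.35 ± 0.24 in Rb/p53 tumours, 2.54-fold (limma adjusted p = 0.000528).

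Cldn4, a claudin that tightens the junction to sodium, had 10.82, 10.95 and 8.82 in Rb/p53/p130 tumours. It ran over 8.41, 10.15 and 12.01 in Rb/p53 tumours (lowest, median and highest) and stood at 8.10 and 7.82 in normal lung. All tumours were above the lungs, but Rb/p53/p130 tumour 13 and Rb/p53 tumour 1 lay close to them. Cldn4 was higher by 2.41 ± 0.80 in Rb/p53 tumours, 5.33-fold (limma adjusted p = 0.0317), and this call was lost without normal lung 1 (adjusted p = 0.139) or normal lung 2 (adjusted p = 0.186). In Rb/p53/p130 tumours the difference was 2.24 ± 0.95 (limma adjusted p = 0.102), and it was called without tumour 13 (difference 2.93, adjusted p = 0.0467).

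Cldn3, a barrier claudin of most simple epithelia, was close to the lung level. Its values were 11.88, 11.65 and 12.00 in Rb/p53/p130 tumours, with 11.19, 11.67 and 12.59 in Rb/p53 tumours (lowest, median and highest) and 11.65 and 11.53 in normal lung. The groups overlapped. The difference was 0.25 ± 0.36 in Rb/p53/p130 tumours (limma adjusted p = 0.677, 95% interval -0.51 to 1.02) and 0.25 ± 0.30 in Rb/p53 tumours (limma adjusted p = 0.578, interval -0.39 to 0.90). None of its 4 probe sets was called.

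Ocln, the first tight junction membrane protein to be described, also lay near lung. It had 10.58, 10.52 and 10.53 in Rb/p53/p130 tumours, with 10.01, 10.54 and 11.10 in Rb/p53 tumours (lowest, median and highest) and 10.22 and 10.28 in normal lung. The Rb/p53 tumours spanned both lungs, and the Rb/p53/p130 tumours were just above them. The difference was 0.30 ± 0.25 in Rb/p53/p130 tumours (limma adjusted p = 0.449, 95% interval -0.24 to 0.84) and 0.21 ± 0.22 in Rb/p53 tumours (limma adjusted p = 0.513, interval -0.25 to 0.67). Its second probe set was not called either.

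Cldn18 was the 1 gene of the 10 called lower. It had 9.58, 9.49 and 8.83 in Rb/p53/p130 tumours, with 6.55, 9.19 and 11.05 in Rb/p53 tumours (lowest, median and highest), against 12.29 and 12.39 in normal lung. Every tumour was below both lungs, and the Rb/p53 tumours were spread widely beneath them. Cldn18 was lower by 8.22-fold in Rb/p53/p130 tumours (log2 difference -3.04 ± 1.02, limma adjusted p = 0.0406) and by 9.20-fold in Rb/p53 tumours (log2 difference -3.20 ± 0.86, limma adjusted p = 0.0102). The call in Rb/p53 tumours was lost without normal lung 1 (adjusted p = 0.0794) or normal lung 2 (adjusted p = 0.0861), and that in Rb/p53/p130 tumours without either lung or any 1 of the 3 tumours (adjusted p between 0.072 and 0.155). A second Cldn18 probe set fell short of the threshold (log2 difference -2.51 and -2.24, limma adjusted p = 0.0755 and 0.0508).

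**Figure D2:**
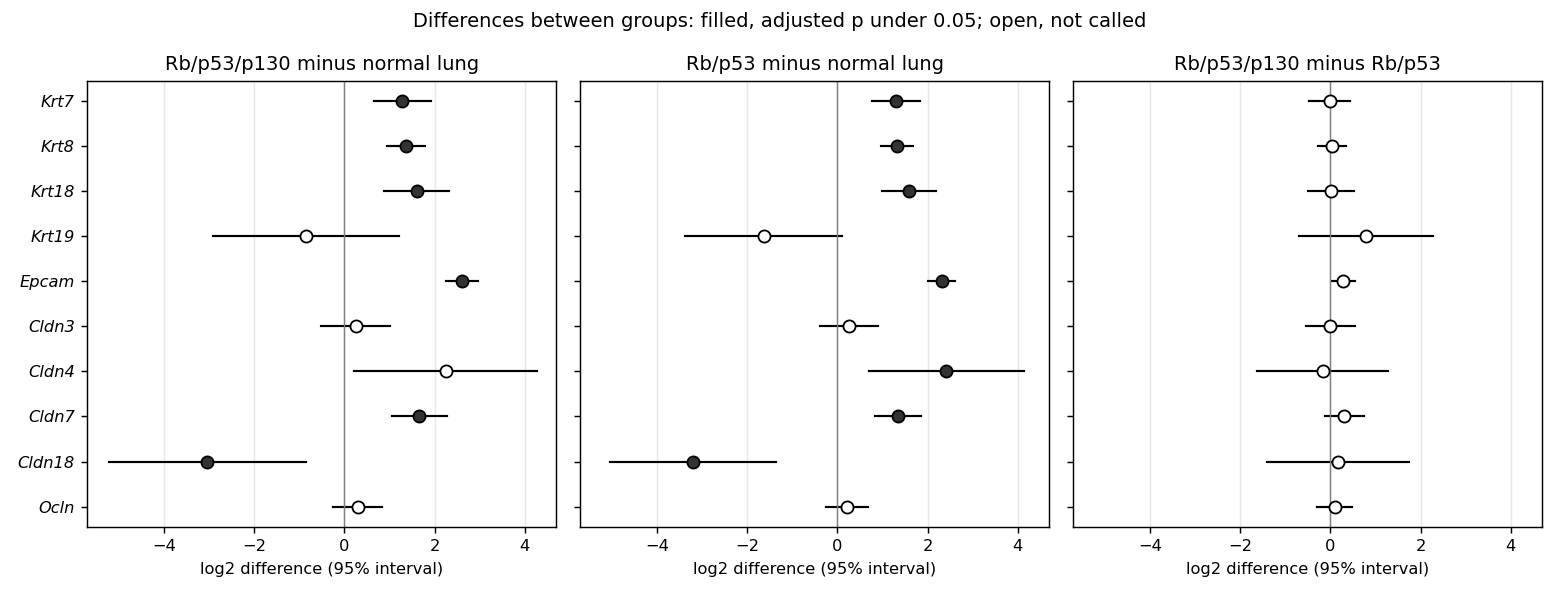
Log2 differences (horizontal axis) of the 10 genes with limma's 95% intervals, for Rb/p53/p130 tumours minus normal lung, Rb/p53 tumours minus normal lung, and Rb/p53/p130 minus Rb/p53 tumours. Filled points passed an adjusted p of 0.05. Between the tumour genotypes 0 of 10 points are filled.

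Markers of several other lung cell types were called lower as well. By comparison, 15.6% of all genes were called lower in Rb/p53/p130 tumours and 20.5% in Rb/p53 tumours. Of 12 alveolar type 1 markers 10 were called lower in Rb/p53/p130 tumours and 12 in Rb/p53 tumours, with median log2 differences of -3.00 and -3.24. In the same order of groups, 5 and 8 of the 11 alveolar type 2 markers measured were called lower, 11 and 11 of 13 ciliated cell markers, 2 and 5 of 11 club cell markers, and 12 and 12 of 13 endothelial markers. The club cell share in Rb/p53/p130 tumours (18.2%) lay near that of all genes. All 8 mesothelial markers measured were called lower in both tumour groups, Gpm6a by 42.8-fold and 39.9-fold (Rb/p53/p130, then Rb/p53 tumours). The summed level of the alveolar type 1 list was 13.8 to 13.9 in Rb/p53/p130 tumours, 12.2 to 14.8 in Rb/p53 tumours and 16.4 to 16.7 in normal lung, on a log2 scale. None of its genes had a tumour mean at or below 5.05, the highest of the arrays' lower quartiles and a level not shown to exceed background. The summed mesothelial level was 9.15 to 9.31, 8.62 to 10.01 and 12.65 to 12.71 in the same 3 groups, with 3 of the 8 markers at or below that level in both tumour groups and 0 in normal lung. Of 8 basal airway cell markers 1 (12.5%) was called lower in Rb/p53/p130 tumours, near the share of all genes, and 0 in Rb/p53 tumours. That 1 was Dapl1, named after its values were seen (log2 difference -0.52, limma adjusted p = 0.032). Means of 4 of the 8 in Rb/p53/p130 tumours, 5 in Rb/p53 tumours and 4 in normal lung were at or below 5.05, so a change in those may go unseen. The part of all these cell types in the differences of the 10 genes was not tested.

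A control for RNA integrity moved with the groups as well. The 3' minus the 5' Gapdh control probe set was -0.03 to 0.08 in Rb/p53/p130 tumours, -0.07 to 0.36 in Rb/p53 tumours, and 0.72 and 0.88 in normal lung, so it sets the lungs apart from all tumours. With this value as a covariate, Epcam alone stayed called, higher by 2.12 in Rb/p53/p130 tumours (limma adjusted p = 0.0045) and by 1.85 in Rb/p53 tumours (adjusted p = 0.0056). Of all probe sets, 3.69% and 4.42% were then called, where the fit without it called 25.1% and 32.1%. The differences of Krt8 and Krt18 were then 1.47 and 1.79 in Rb/p53/p130 tumours and 1.43 and 1.77 in Rb/p53 tumours, no smaller than without the covariate. Cldn18 differed by -2.59 and -2.78, Cldn7 by 1.33 and 1.03 and Krt7 by 1.17 and 1.19 in the same order of groups. Cldn4 differed by 1.22 in Rb/p53 tumours, where the fit without the covariate gave 2.41. The adjusted p of the lost calls ran from 0.0874 (Krt8) to 0.63 (Cldn18) in Rb/p53/p130 tumours and from 0.0658 (Krt8) to 0.804 (Cldn4) in Rb/p53 tumours. RNA quality and group cannot be told apart here.

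The comparison of tumour genotypes shows what differs where p130 is deleted too. None of the 10 genes was called (0 of 10 in limma, where 0.0715% of all genes were), and by their brightest probe sets the arrays of the genotypes overlapped in all 10, where 1.1% of all genes lay wholly higher and 0.868% wholly lower in Rb/p53/p130 tumours. At an unadjusted p under 0.05 there was 1, Epcam, where 7.26% of all genes passed. Epcam was higher in Rb/p53/p130 tumours by 0.29 ± 0.12, with a 95% interval of 0.03 to 0.54 (limma p = 0.03, adjusted p = 0.424). Second probe sets of 2 genes differed more without being called. That of Ocln had 9.83, 9.67 and 9.62 in Rb/p53/p130 tumours and 8.65, 9.25 and 9.59 in Rb/p53 tumours (lowest, median and highest), so these arrays did not overlap. Its difference was 0.46 ± 0.17 (limma p = 0.0148, adjusted p = 0.338), and that of the second Epcam probe set was 0.46 ± 0.15 (limma p = 0.00863, adjusted p = 0.282). The median absolute difference of the 10 genes was 0.126, against 0.13 for all genes.

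Intervals between the genotypes show which differences remain possible. They come from the fit of all 15 arrays, in which the 3 groups share 1 estimate of spread. They were narrow for Krt8 (difference 0.035, interval -0.27 to 0.34), Krt7 (-0.012, interval -0.47 to 0.44) and Krt18 (0.012, interval -0.51 to 0.53). For Ocln the interval was -0.30 to 0.48, for Cldn7 -0.13 to 0.75 and for Cldn3 -0.55 to 0.55. They were wide for Krt19 (difference 0.78, interval -0.71 to 2.27), Cldn4 (-0.17, interval -1.63 to 1.28) and Cldn18 (0.16, interval -1.41 to 1.73). For those 3 genes a difference of more than 2-fold in either direction lies within the interval, except a fall of that size in Krt19.

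**Figure D3:**
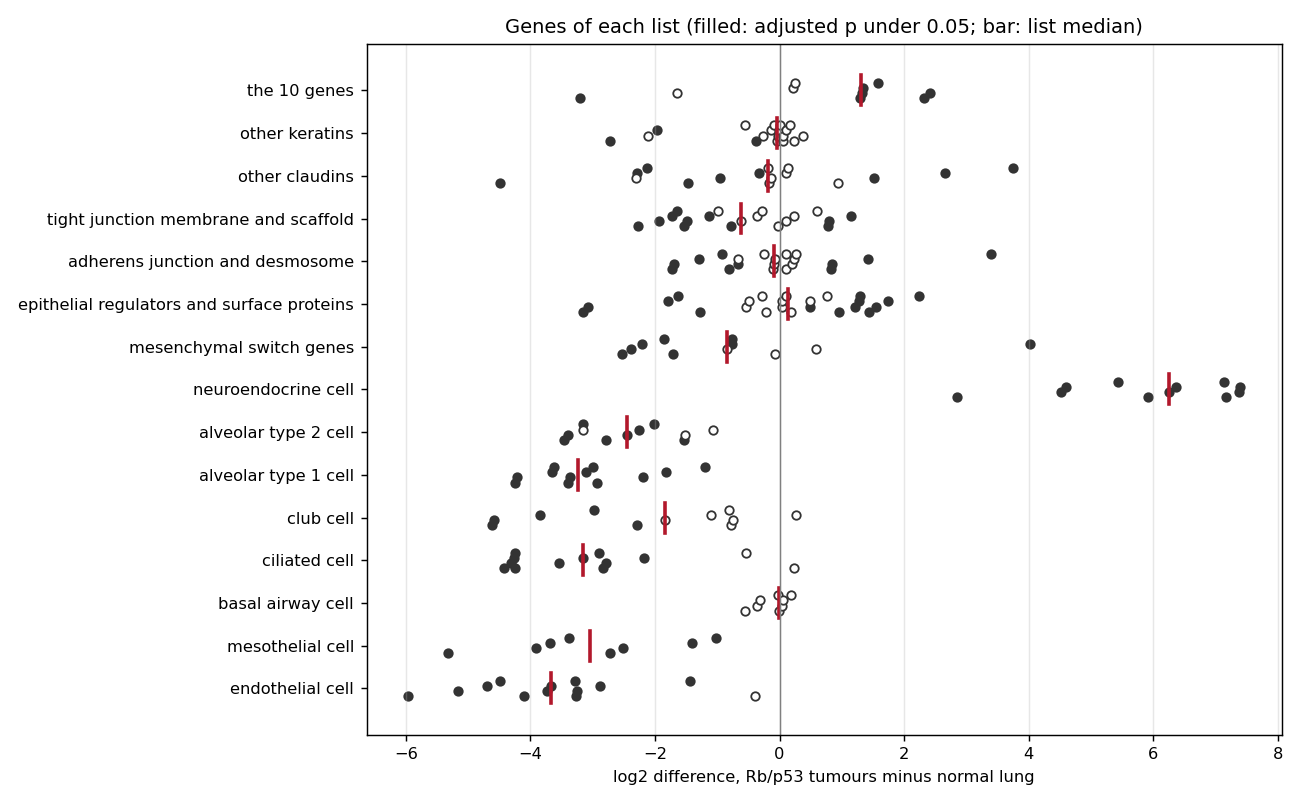
Log2 difference, Rb/p53 tumours minus normal lung (horizontal axis), for each measured gene of the 10 and of 14 other lists. Filled points passed an adjusted p of 0.05, open points did not, and the red bar is the list's median. The 10 genes have a median of 1.31, and the other keratins have a median of -0.03 and run from -2.73 to 0.37. Of those 18 keratins, 8 had Rb/p53 tumour means at or below 5.05, a level not shown to exceed background. The alveolar and endothelial lists lie to the left and the neuroendocrine list to the right.

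Other genes of the epithelial programme show how the 10 compare with their families. The median log2 difference of the 10 was 1.32 in Rb/p53/p130 tumours and 1.31 in Rb/p53 tumours, against -0.02 in each for all genes. Of all genes 15.3% were called higher and 15.6% lower in Rb/p53/p130 tumours, and 18.3% and 20.5% in Rb/p53 tumours. Of 18 other keratins 0 were called higher in either genotype, and 1 (5.6%) and 3 (16.7%) were called lower in Rb/p53/p130 and Rb/p53 tumours. Means of 8 of the 18 in each tumour group and of 6 in normal lung were at or below 5.05, the level not shown to exceed background. A change in those may go unseen. Krt80, a keratin of maturing epithelia, was lower by 2.71 ± 0.54 in Rb/p53/p130 tumours and by 2.73 ± 0.46 in Rb/p53 tumours (limma adjusted p = 0.00186 and 0.000345). Krt23 differed by -1.52 ± 0.68 (limma adjusted p = 0.126) and -1.97 ± 0.58 (adjusted p = 0.0169). The third, Krt13, had means at or below the quartile level given above in all groups, so it is given no fold.

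Of 16 other claudins measured, 2 (12.5%) were called higher and 4 (25%) lower in Rb/p53/p130 tumours and 3 (18.8%) and 6 (37.5%) in Rb/p53 tumours. The shares called higher lay near those of all genes. Cldn9 was higher by at least 7.09-fold and at least 9.04-fold in these groups (limma adjusted p = 0.00988 and 0.00118), with normal lung at or below that level. Cldn6, a claudin of embryonic epithelia, was higher by 5.32-fold and 6.29-fold (limma adjusted p = 0.00603 and 0.000656). Cldn5, the claudin of endothelium, was lower by 25.2-fold and 22.6-fold (limma adjusted p = 0.000913 and 0.000221), beside the fall of 12 of 13 endothelial markers, of which it is 1. The median difference of these claudins was -0.15 in Rb/p53/p130 tumours and -0.18 in Rb/p53 tumours.

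Behind the claudins, the tight junction list of 19 measured membrane and scaffold genes had 4 higher (21.1%) and 7 lower (36.8%) in Rb/p53/p130 tumours and 3 higher (15.8%) and 8 lower (42.1%) in Rb/p53 tumours. Cgnl1 (paracingulin), a junction scaffold, was lower by 3.86-fold and 4.85-fold (limma adjusted p = 0.0133 and 0.00112). The scaffold Magi3 was lower by 2.61-fold and 3.81-fold (limma adjusted p = 0.000322 and 2.05e-06). Pard6b, of the apical polarity complex, was lower by 2.89-fold and 3.31-fold (limma adjusted p = 0.00163 and 0.000108).

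For adherens junctions and desmosomes, 4 of 20 genes (20%) were higher and 3 (15%) lower in Rb/p53/p130 tumours, and 4 (20%) and 6 (30%) in Rb/p53 tumours. In Rb/p53/p130 tumours the share called lower, and in Rb/p53 tumours the share called higher, lay near that of all genes. Dsc2, a desmosomal cadherin, was higher by 14.4-fold and 10.5-fold (limma adjusted p = 9.24e-08 and 3.78e-08). The adhesion protein Nectin3 was lower by 2.50-fold and 3.32-fold (limma adjusted p = 0.0109 and 0.000335). Perp, a desmosome component and p53 target, differed by -0.79 ± 0.67 in Rb/p53/p130 tumours (limma adjusted p = 0.448) and -1.70 ± 0.57 in Rb/p53 tumours (adjusted p = 0.032). Cdh1 (E-cadherin), named here after its values were seen, differed by 0.52 ± 0.21 and 0.11 ± 0.18 and was not called (limma adjusted p = 0.0911 and 0.695).

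Of 24 epithelial regulators and surface proteins measured, 10 (41.7%) were higher and 4 (16.7%) lower in Rb/p53/p130 tumours, and 9 (37.5%) and 5 (20.8%) in Rb/p53 tumours. The shares called lower lay near those of all genes. Elf3, an ETS factor of epithelia, was higher by 4.65-fold and 4.72-fold (limma adjusted p = 0.000257 and 3.68e-05). Klf4, a zinc finger factor of differentiating epithelia, was lower by 6.00-fold and 8.46-fold (limma adjusted p = 0.0097 and 0.000626). Elf5, another ETS factor, differed by -1.78 ± 1.01 in Rb/p53/p130 tumours (limma adjusted p = 0.232) and -3.16 ± 0.86 in Rb/p53 tumours (adjusted p = 0.0105).

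The mesenchymal list, which holds the Snail and Zeb repressors of epithelial genes, had 1 of 11 genes higher and 7 lower in each tumour genotype. The gene that was higher was Cdh2 (N-cadherin, also a cadherin of neurons), at 11.23, 11.17 and 10.98 in Rb/p53/p130 tumours and 10.64, 10.91 and 11.91 in Rb/p53 tumours (lowest, median and highest), against 7.01 and 7.09 in normal lung. It was 16.8-fold and 16.2-fold higher (limma adjusted p = 6.88e-07 and 9.94e-08). Snai2 was lower by 6.68-fold and 5.75-fold (limma adjusted p = 0.00797 and 0.00343), and Zeb2 by 10.2-fold and 5.21-fold (limma adjusted p = 9.78e-06 and 3.63e-05). In each tumour genotype 9.1% of this list was thus called higher and 63.6% lower. Snai1, Twist1 and Twist2 had means at or below 5.05 in both tumour groups, with 5.71, 4.35 and 5.41 in normal lung. A fall called among those 3 would thus start near that level. Genes of this list are also expressed by endothelial and other cells. Endothelial markers fell, and the part of those cells was not tested. Between tumour genotypes 0 genes of any of these lists were called.

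**Figure D4:**
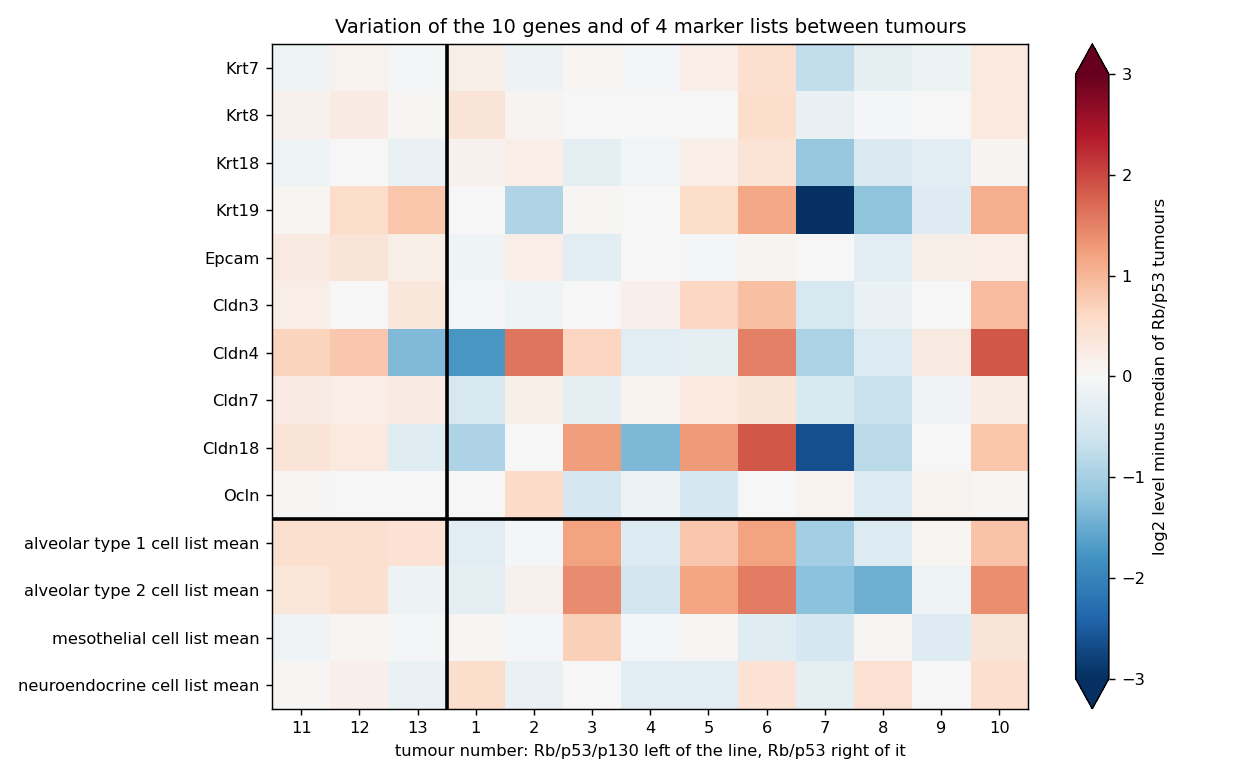
Log2 level of each gene (top rows) and mean level of 4 marker lists (bottom rows) in every tumour, minus the median of the 10 Rb/p53 tumours. Columns left of the vertical line are the 3 Rb/p53/p130 tumours, and colours run from blue (lower) to red (higher). Krt19, Cldn4 and Cldn18 vary most, and tumour 7 is lowest and tumour 6 highest in 6 genes each.

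The 10 genes differed widely in how much they varied among the 10 Rb/p53 tumours. Epcam had an SD of 0.19 and Krt8 of 0.23, at percentiles 12.6 and 22.1 of the SDs of genes above the median level. Ocln, Krt7, Cldn7, Krt18 and Cldn3 had SDs of 0.33, 0.35, 0.37, 0.45 and 0.48, at percentiles 53.5 to 77.9. Cldn4, Krt19 and Cldn18 had SDs of 1.18, 1.32 and 1.40, at percentiles 98.1, 98.8 and 99.1. Krt19 spanned 4.54 log2 units and Cldn18 4.50, where Epcam spanned 0.52. Among the 3 Rb/p53/p130 tumours Cldn4 had an SD of 1.19, Cldn18 of 0.41 and Krt19 of 0.38.

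Single tumours stood at the ends of many genes. Rb/p53 tumour 7 was the lowest in 6 genes (Krt7, Krt8, Krt18, Krt19, Cldn3 and Cldn18), and tumour 8 was among the 3 lowest in 9. Tumour 6 was the highest in 6 genes and tumour 10 in 3. Without tumour 7 the SD of Krt19 was 0.82, that of Cldn18 1.13 and that of Krt18 0.29, against 1.32, 1.40 and 0.45 with it. Epcam was not among the genes low in tumour 7, where it had 13.65. The alveolar type 1 list was also lowest in tumour 7 (mean level 8.13) and stood at 10.35 in tumour 6 and 10.00 in tumour 10. Tumour 3 (10.36) was level with tumour 6 at the top of this list. Tumour 3 was the highest in 0 of the 10 genes and the lowest in Epcam.

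**Figure D5:**
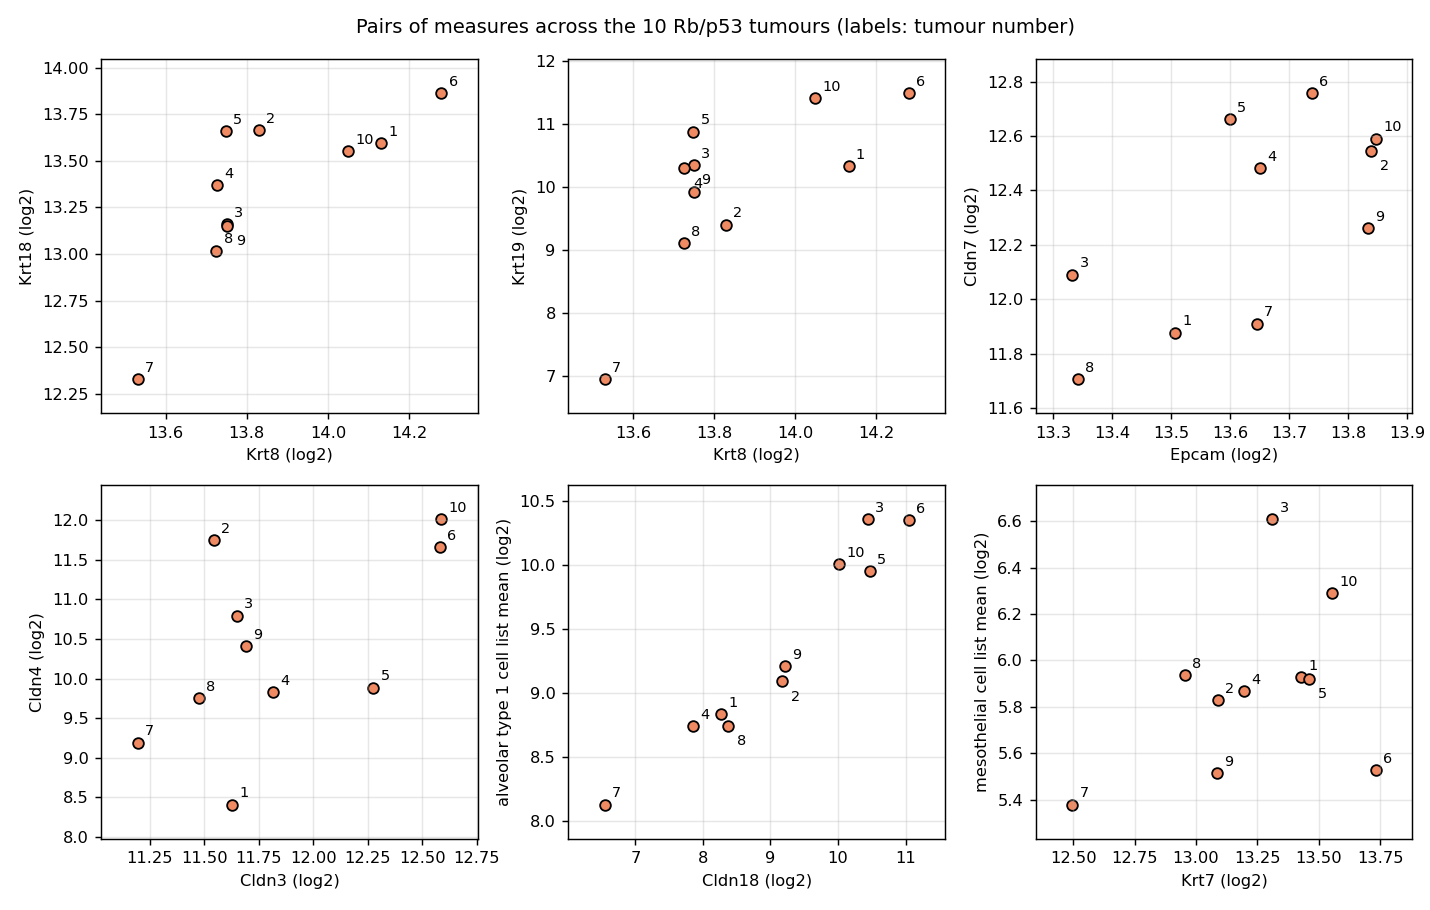
Pairs of measures across the 10 Rb/p53 tumours, each axis a log2 level (or the mean level of a marker list) and each point a tumour with its number. Of the 6 pairs, Cldn18 with the alveolar type 1 list has the highest r (0.97).

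Whether genes varied together was asked of 6 pairs across the 10 Rb/p53 tumours, with permutation tests of 100000 resamples, two-sided, adjusted over the 6. Cldn18 followed the mean of the alveolar type 1 list, to which it does not belong (r = 0.97, p = 3.0e-05, adjusted p = 0.00018, rho = 0.927, permutation p = 0.00036). Without the 2 tumours farthest from the median of the first-named gene of a pair, here 6 and 7, r was 0.955. Without any 1 tumour it was 0.962 to 0.977. No other list was paired with Cldn18, so whether it follows this list alone was not tested. The endothelial list too was lowest in tumour 7 (mean level 6.99) and highest in tumour 6 (9.07), as Cldn18 was. Partner keratins Krt8 and Krt18 correlated at r = 0.761 (permutation p = 0.0101, adjusted p = 0.0303), with rho = 0.745 (permutation p = 0.0174, adjusted p = 0.0523). Krt8 and Krt19 gave r = 0.721 (permutation p = 0.0179, adjusted p = 0.0359) and rho = 0.673 (permutation p = 0.0395, adjusted p = 0.079). Without the 2 tumours farthest from the median of Krt8, which were 1 and 6, r was 0.743 and 0.788 for these pairs, with tumour 7 kept. Without any 1 of tumours 1, 6, 7 and 10 neither keratin pair passed the adjusted threshold, nor did Krt8 with Krt19 without tumour 8, and r without tumour 7 was 0.697 and 0.63.

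The other relations did not pass. Epcam with its binding partner Cldn7 gave r = 0.667 (permutation p = 0.0389, adjusted p = 0.0583) and rho = 0.6 (permutation p = 0.0733), and 0.475 without the 2 farthest tumours. The chromosomal neighbours Cldn3 and Cldn4 gave r = 0.57 (permutation p = 0.0869, adjusted p = 0.104) and rho = 0.576 (permutation p = 0.0886). That relation rests on tumours 6 and 10, without which r was 0.0804. Krt7 with the mesothelial list, whose cells also make Krt7, gave r = 0.383 (permutation p = 0.27) and rho = 0.358 (permutation p = 0.31), and 0.474 without the 2 farthest tumours. No batch or scan date is given in the sources used here, so none of these could be recomputed within batches.

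The genes whose levels were most like each member across the 10 Rb/p53 tumours were taken from 9095 genes above the median level. These correlations are descriptions of 10 arrays that share each tumour's cell mixture. Each named gene was picked for a high r among 9095, and how high an r such picking gives by chance was not tested. For Krt7 the most alike was Krt19 (r = 0.972), for Krt19 Tmem184b (0.986), for Krt8 Spns2 (0.957) and for Krt18 Vcl (0.956), which encodes the adhesion protein vinculin. For Epcam, the least variable of the 10, no gene exceeded Rfesd (r = 0.9). For Cldn3 it was Gstm2 (0.964), followed by the epithelial protease gene Prss8 (0.953), for Cldn4 Akr1b8 (0.932), for Cldn7 Sprr1a (0.961) and for Ocln Plcl2 (0.929). For Cldn18 it was Serpinb9 (0.98), followed by Retnla (0.966), a gene of the club cell list, and the alveolar type 1 water channel Aqp5 (0.962). Tumour 7 lay far from the others in several genes, so the same pairs were recomputed without it, an alternative chosen after seeing the data. Without tumour 7, r was 0.949 for Krt7 with Krt19, 0.959 for Krt19 with Tmem184b and 0.875 for Krt18 with Vcl. It was 0.944 for Krt8 with Spns2 and 0.958 for Cldn3 with Gstm2. For Cldn18 it was 0.967 with Serpinb9, 0.942 with Retnla and 0.963 with Aqp5.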

How the data were processed

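Total RNA was isolated with Trizol and amplified in a pair of rounds with a RiboAmp kit, per the labels' protocols, and read on Affymetrix whole-genome mouse arrays. The deposited values are log2 levels, 1 per probe set and array, made by the authors with RMA, per the submitters' processing notes (version not given). Amplification favours 3' ends, and RMA sets the arrays' distributions nearly equal, so a shift of most genes would not be seen.

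Of 45101 probe sets, 64 controls were left out. The probe table named 1 gene for 34945 of the 45037 tested, several for 932 and none for 9160. Of those with 1 gene, 34741 were matched by gene ID to RefSeq (GRCm38.p6). For each of 18193 genes, the probe set brightest on average across the arrays was read. All 3 groups entered 1 fit in limma 3.58.1 (R 4.3.3, lmFit and eBayes), with Benjamini-Hochberg adjustment across probe sets and calls at 0.05. The fit was also run on simulated data with independent noise of the same SD in every group. Spread differs between the groups here, so that run does not check the p-values given. Errors are SD for levels and limma's SE for differences. A fold is a lower bound where the lower group's mean was at or below 5.05.

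The 10 genes and the 14 lists (204 entries, 195 measured) were chosen with earlier results of these data known. Named list genes are up to 3 called genes of the highest absolute difference in Rb/p53 tumours against normal lung in each list, or the smallest p where none was called. Of the entries, 9 were not analysed here. Correlations used 100000 permutations in Python 3.11.15, and figures matplotlib 3.10.9. Alternatives normalised again by quantiles, kept brighter probe sets, fitted the compared groups alone, used a trended robust prior, a Gapdh covariate, the mean of a gene's probe sets, no _s, _x or _a probe sets, a block on the array number, and left out each array in turn.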

Additional observations from a re-analysis of the deposited data

Results flagged for a closer look

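Krt19 stood at 6.95 in Rb/p53 tumour 7, far below the other 9 Rb/p53 tumours, which lay between 9.11 and 11.49. The gap to the nearest tumour, as a share of the group's range, exceeded Dixon's 95% critical value for 10 samples. It was the 1 flag among 50 genes checked, the 10 described here among them, and chance flags about 1 in 20 groups.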

How the results depend on the processing

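Of the 10 genes, 6 were called in Rb/p53/p130 tumours and 7 in Rb/p53 tumours against normal lung, and 0 between genotypes, and the last count was 0 under every alternative run. With the Gapdh covariate the counts against normal lung were 1 and 1. Without _s, _x and _a probe sets they were 3 in Rb/p53/p130 tumours and 4 in Rb/p53 tumours, of the 6 genes that keep a probe set. Leaving out 1 array at a time gave 4 to 6 in Rb/p53/p130 tumours and 4 to 7 in Rb/p53 tumours (4 without normal lung 1). Fitting Rb/p53/p130 tumours and lung alone gave 8, with Krt19 (limma adjusted p = 0.0309) and Cldn4 (adjusted p = 0.0385) added, where this fit called 35.9% of all probe sets. Array numbers did not pair the samples (same-number r = -0.0043 and -0.055). The replicate block on them gave 5 calls in Rb/p53 tumours, 4 of them shared, with Krt19 at -1.79 (limma adjusted p = 0.0302). Only numbers 1 and 2 occur in both groups, so the difference under this block rests on Rb/p53 tumours 1 and 2 and the 2 lungs. The other Rb/p53 tumours add nothing to it. Cldn3, not called, turned to -0.40 in Rb/p53/p130 tumours and -0.37 in Rb/p53 tumours with the Gapdh covariate and to -0.0031 in Rb/p53 tumours with the block. Between genotypes it turned to 0.00097 after quantile normalisation and 0.073 with averaged probe sets, and Cldn18 to -0.051 with averaged probe sets. Leaving out 1 array gave genotype differences of -0.093 to 0.044 for Krt7, -0.014 to 0.086 for Krt8, -0.0998 to 0.0705 for Krt18, -0.077 to 0.095 for Cldn3, -0.55 to 0.51 for Cldn4 and -0.13 to 0.40 for Cldn18. Correlations without 1 tumour ran over 0.697 to 0.84 for Krt8 with Krt18, 0.63 to 0.789 for Krt8 with Krt19, 0.529 to 0.738 for Epcam with Cldn7 (0.748, adjusted permutation p = 0.024, with averaged probe sets), 0.414 to 0.743 for Cldn3 with Cldn4 and 0.0538 to 0.678 for Krt7 with the mesothelial list. The causes of these changes were not tested. With 2 normal lungs, the spread of normal tissue is poorly known.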
